A study of Mus musculus with 12 samples.

Results

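The 81 genes described here encode collagens, laminins and integrins, the fibre and sheet proteins of the extracellular matrix and the cell surface receptors that bind them. They were chosen by gene symbol from the rows of an Affymetrix Mouse Gene 1.1 ST array whose platform annotation gives exactly 1 symbol. There were 21218 such rows, called probe sets here, with 18820 different symbols. The choice took every symbol of the form Col, digits, a and digits, every Lama, Lamb or Lamc symbol and every Itga or Itgb symbol except Itgam. It gave 86 probe sets, from which the one with the highest mean over the arrays was kept for each symbol. The members are 42 collagen genes, 10 laminin genes and 29 genes with an integrin prefix, of which 3 (Itgb1bp1, Itgb1bp2 and Itgbl1) encode no integrin chain. Of the 5 symbols with a second probe set, Col6a6 gave the least alike values. Its difference was -0.01 on the probe set kept (limma unadjusted p = 0.776). On the other it was -0.09 (limma unadjusted p = 0.0309, adjusted p = 0.298). Both groups were C57BL/6N offspring dissected at 12 weeks of age after cognitive and behavioural tests. The 6 poly(I:C) arrays came from offspring of dams given 5 mg/kg poly(I:C), a double-stranded RNA made to imitate a virus, into a vein on gestation day 17. The 6 control arrays came from offspring of dams given saline in the same way on that day. RNA was taken from the nucleus accumbens, core and shell together, cut by hand from 1-mm coronal sections. Which animals shared a litter, and their sex, is not stated in the labels, so litter mates, if any, are counted as separate animals.

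Collagens are triple helices of alpha chains. Fibrillar types form the cables of connective tissue, type IV forms the network of basement membranes and type VI forms beaded filaments beside cells. Laminins are alpha, beta and gamma trimers that polymerise into the sheet of a basement membrane, and integrins are alpha and beta pairs through which cells hold on to both. In the brain these proteins are concentrated in the meninges, in the walls of blood vessels and under the ependyma and choroid plexus, whereas neurons and glia carry several of the integrins.

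The values are log2 expression levels. The 12 arrays were alike in scale, with medians between 4.78 and 4.85 and pairwise correlations between 0.991 and 0.997, and 0 pairs were identical. Defining transcripts of the medium spiny neuron, the main cell of the accumbens, were present in both groups. Penk averaged 11.16 ± 0.08 in poly(I:C) and 11.18 ± 0.11 in control offspring, Drd1 8.62 ± 0.21 and 8.45 ± 0.26, and Drd2 8.69 ± 0.19 and 8.73 ± 0.23 (SD, n = 6 each). The means of marker genes of other cell types were not the same on all arrays. The mean of 13 choroid plexus genes lay between 4.22 and 4.40 on the poly(I:C) arrays, against 5.59 and 6.41 on control arrays 4 and 6 and 4.37 to 4.76 on the other control arrays. The mean of 13 oligodendrocyte genes ran from 7.30 to 7.43 on the poly(I:C) arrays, against 7.41 to 7.96 on the control arrays. That of 8 genes of cortical glutamatergic neurons ran from 5.83 to 6.65, against 5.32 to 6.48.

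Among the collagens, laminins and integrins, 0 of 81 genes passed an adjusted p of 0.05 between poly(I:C) and control offspring in limma, against 13 of all 21218 probe sets (0.0613%). At an unadjusted p under 0.05, poly(I:C) offspring had 6 members higher and 2 lower. These are 7.41% and 2.47% of the members, against 7.83% higher and 6.57% lower over all probe sets. The share on the higher side was near the background and that on the lower side was below it. The 6 on the higher side were all collagens (Col11a1, Col6a1, Col12a1, Col1a2, Col4a4 and Col13a1), and the 2 on the lower side were the integrin beta chains Itgb4 and Itgb7. A level above that of control offspring was found for 46 of 81 members, against 50.9% of all probe sets. The median difference, poly(I:C) minus control, was 0.01 on the log2 scale over the members and 0.0016 over all probe sets. In these bulk samples fewer cells of a type and less RNA per cell cannot be told apart.

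**Figure D1:**
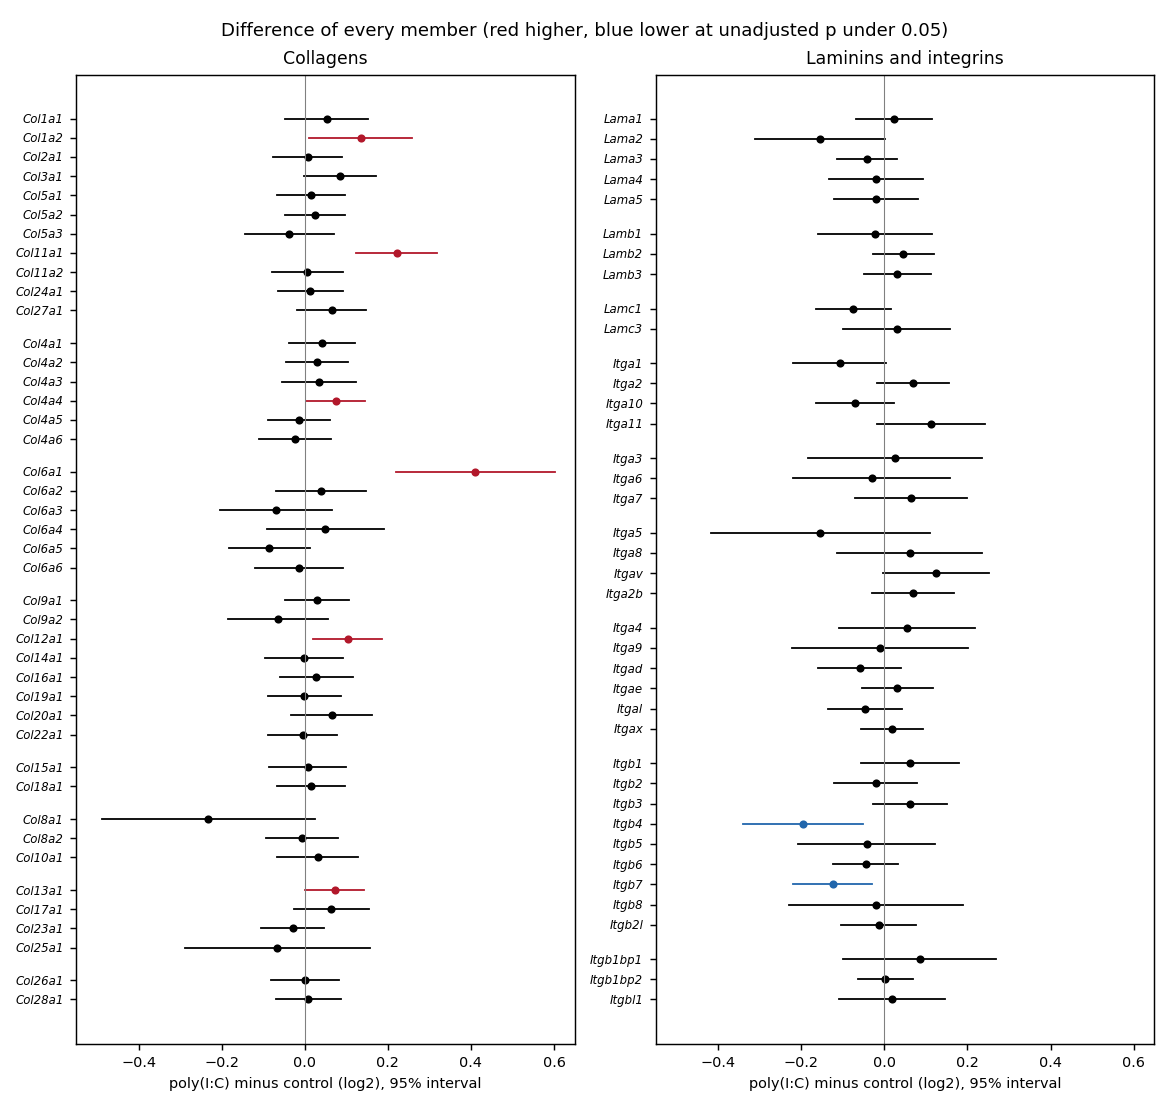
The difference of each of the 81 members, poly(I:C) minus control in log2 units, is drawn with its 95% interval from limma, for collagens (left) and for laminins and integrins (right), with gaps between structural classes. The interval of Col6a1, from 0.22 to 0.60, and that of Col11a1, from 0.12 to 0.32, lie clear of 0, while most others cross it.

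Fibrillar collagens form the cables of connective tissue. Of their 11 genes, 10 had a positive difference and 2 of these, Col11a1 and Col1a2, had an unadjusted p under 0.05. Over all probe sets 50.9% had a positive difference, and 7.83% were higher at that threshold. The median difference of the 11 genes was 0.02, against a median SD within groups of 0.07 over the members. Of the 11 genes, 0 reached the median level of all probe sets, 5.47. Col11a1 encodes a chain of type XI collagen, a minor fibrillar collagen that sits in the core of cartilage fibrils. Its log2 levels were 5.36, 5.28, 5.25, 5.38, 5.42 and 5.23 on poly(I:C) arrays 1 to 6, against 5.22, 5.04, 5.16, 5.09, 5.05 and 5.03 on control arrays 1 to 6. The groups did not overlap, although the lowest poly(I:C) array and the highest control array lay next to each other. Col11a1 averaged 5.32 ± 0.08 in poly(I:C) and 5.10 ± 0.08 in control offspring (SD, n = 6 each), a difference of 0.22 ± 0.05 (SE, limma adjusted p = 0.0820). Non-overlap of this kind was found for 2 of 81 members, Col11a1 and Col6a1, and for 1.13% of all probe sets.

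Col6a1 encodes a chain of type VI collagen, whose beaded filaments link cells to the matrix and whose mutations cause Bethlem and Ullrich muscular dystrophy. It had the largest difference of the 81 members in either direction. Its levels were 7.36, 7.06, 6.83, 7.42, 7.16 and 6.93 on poly(I:C) arrays 1 to 6, against 6.79, 6.67, 6.68, 6.77, 6.79 and 6.59 on control arrays 1 to 6. All 6 poly(I:C) arrays lay above all 6 control arrays, and the poly(I:C) arrays were the more spread, with arrays 1 and 4 highest. Col6a1 averaged 7.13 ± 0.24 in poly(I:C) and 6.72 ± 0.08 in control offspring (SD, n = 6 each), a difference of 0.41 ± 0.09 (SE, limma adjusted p = 0.0869). The other classical chains of the same filament had smaller values. Col6a2, the partner chain encoded beside Col6a1, differed by 0.04 and Col6a3 by -0.07, with limma adjusted p of 0.774 and 0.655. Col6a5, another type VI chain, spanned 4.31 to 4.52 in poly(I:C) and 4.44 to 4.67 in control offspring, a difference of -0.09 (limma adjusted p = 0.413). Col6a2 and Col6a3 are given here because they are partners of Col6a1, after their values were seen, and the differences between the chains were not tested.

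Col11a1 and Col6a1 fell short of the adjusted threshold in the limma fit, and passed it under some other settings. With arrays weighted by their quality the adjusted p was 0.0308 for Col11a1 and 0.0459 for Col6a1, without control array 1 it was 0.0498 for Col11a1, and with the mean of endothelial and mural genes as a covariate it was 0.0335 for Col6a1. These settings also called more of all probe sets, 140, 54 and 46 in that order against 13. Over all alternatives, 26 for Col11a1 and 27 for Col6a1, the limma adjusted p rose to as much as 0.584 for each gene. With the oligodendrocyte mean as a covariate, which was chosen after the data were seen, the difference of Col11a1 was 0.11 (limma unadjusted p = 0.0774) and that of Col6a1 0.30 (0.0418). The oligodendrocyte mean itself differed between the groups, so this fit cannot separate the group from that mean.

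The promoters of these genes are shown because they are the members whose groups did not overlap. Each is the first 189 bases of the RefSeq promoter window (GRCm38.p6), which runs from 250 bases before to 50 bases after a transcript start, read 5′ to 3′ on the strand of the gene. The rest of the window was left out because the annotated Col11a1 gene begins within it. Col11a1 lies at chr3:114030290-114030478 on the plus strand and Col6a1 at chr10:76726106-76726294 on the minus strand. Capitals mark a match to a GC box, to a CCAAT box or to a TATA box, each searched on both strands. The GC box was searched as the letters GGGCGG. The CCAAT box is spelled by its name and reads ATTGG on the other strand. The TATA box was searched as TATAAA. The capitals of the motifs did not overlap.
Col11a1: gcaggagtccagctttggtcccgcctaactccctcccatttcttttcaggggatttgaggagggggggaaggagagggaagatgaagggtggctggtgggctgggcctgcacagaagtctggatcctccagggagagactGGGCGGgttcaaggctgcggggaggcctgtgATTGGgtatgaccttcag
Col6a1: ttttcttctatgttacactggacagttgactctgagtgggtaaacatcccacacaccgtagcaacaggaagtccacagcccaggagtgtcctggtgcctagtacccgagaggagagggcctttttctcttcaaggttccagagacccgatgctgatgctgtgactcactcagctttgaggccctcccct
The Col11a1 stretch had a GC content of 60.3% and held 1 GC box and 1 CCAAT box, whereas the Col6a1 stretch had a GC content of 52.9% and held 0 of the 3 motifs. Of all 32851 promoter stretches of this length, 22.6% held a GC box, 26.5% a CCAAT box and 8.69% a TATA box. Of 65 stretches that belong to 59 of the members, these shares were 33.8%, 20.0% and 6.15%. A match is a run of letters and was not tested as a binding site.

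**Figure D2:**
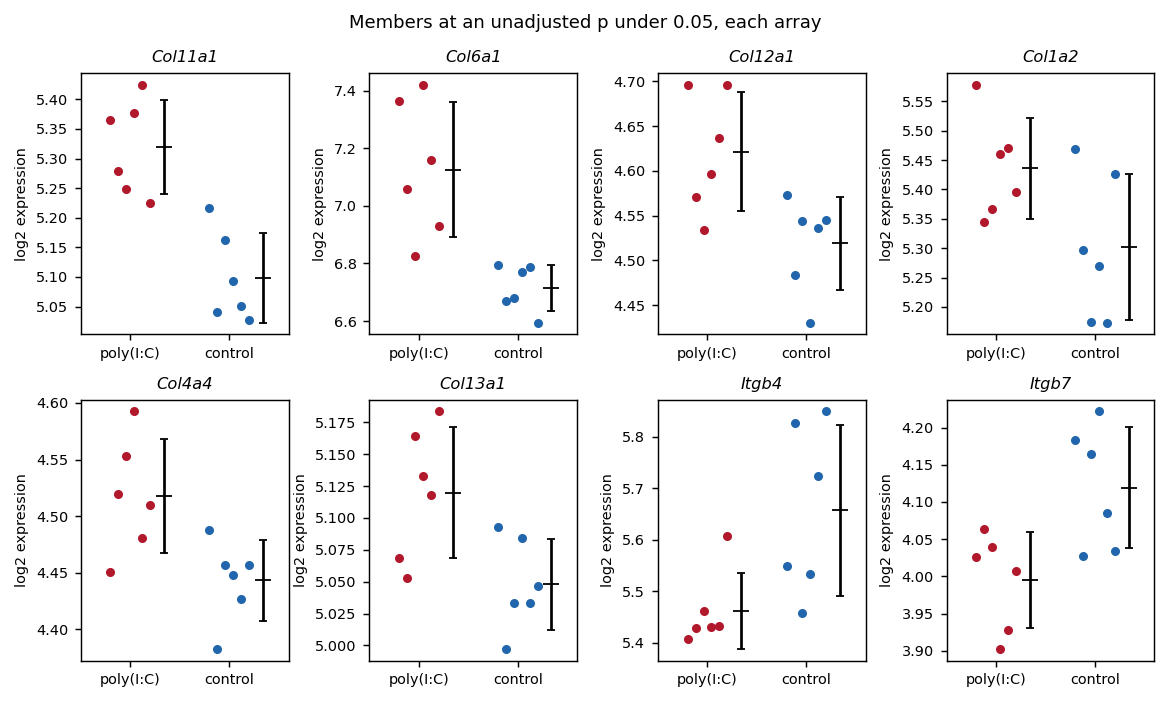
Each panel shows 1 member with an unadjusted p under 0.05 as its log2 level on the 6 poly(I:C) arrays (red, left) and the 6 control arrays (blue, right), beside the mean and SD of each group. Col11a1 and Col6a1 are the panels with no overlap, and in the Itgb4 panel 3 control arrays lie above all poly(I:C) arrays.

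Col1a2 encodes a chain of type I collagen, the main fibre of meninges, skin and bone. Its lowest, median and highest levels were 5.34, 5.43 and 5.58 in poly(I:C) offspring, against 5.17, 5.28 and 5.47 in control offspring. The groups overlapped, and the difference was 0.13 (95% interval 0.01 to 0.26, limma adjusted p = 0.313). Its partner chain Col1a1 spanned 5.26 to 5.53 in poly(I:C) and 5.26 to 5.44 in control offspring, a difference of 0.05 (limma adjusted p = 0.648). Col3a1, the type III collagen of vessel walls and other pliable tissue, had levels of 4.82, 4.87 and 4.91 at its lowest, median and highest poly(I:C) array, against 4.68, 4.80 and 4.91 for control offspring. Its difference was 0.08 with an interval that crossed 0 (-0.002 to 0.17, limma adjusted p = 0.357). The 1 fibrillar collagen with a negative difference was Col5a3, at -0.04, named here after its value was seen.

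Type IV collagen is the network of every vascular basement membrane, and Col4a1 and Col4a2 encode its common chains. Col4a1 ran from 4.98 to 5.16 in poly(I:C) and from 5.00 to 5.12 in control offspring, with a difference of 0.04 (95% interval -0.04 to 0.12). Col4a2 ran from 5.25 to 5.35 in poly(I:C) and from 5.21 to 5.35 in control offspring, with a difference of 0.03 (95% interval -0.05 to 0.10). Neither group of arrays stood apart from the other in either chain. Col4a4, a chain of the kidney glomerular network, averaged 4.52 ± 0.05 in poly(I:C) and 4.44 ± 0.04 in control offspring (SD, n = 6 each), a difference of 0.07 (limma adjusted p = 0.328). Of the 6 type IV genes, 4 had a positive and 2 a negative difference.

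Col12a1, a collagen that coats type I fibrils, had levels of 4.53, 4.62 and 4.70 at its lowest, median and highest poly(I:C) array, against 4.43, 4.54 and 4.57 in control offspring. The groups overlapped at the lower poly(I:C) arrays, and the difference was 0.10 (limma adjusted p = 0.256). Col13a1 is a transmembrane collagen of the neuromuscular junction. It spanned 5.05 to 5.18 in poly(I:C) and 5.00 to 5.09 in control offspring, a difference of 0.07 (limma adjusted p = 0.345). Of the other transmembrane collagens, Col25a1, whose shed part binds amyloid, differed by -0.07 and Col23a1 by -0.03. The remaining one, Col17a1, named here after its value was seen, differed by 0.06 (limma adjusted p = 0.517). Col8a1, a short-chain collagen of vessel walls and the cornea, had the largest negative difference of the members, -0.23 (95% interval -0.49 to 0.02, limma adjusted p = 0.395). Its levels were 4.51, 4.58, 4.62, 4.46, 4.83 and 4.56 on poly(I:C) arrays 1 to 6, against 4.68, 4.58, 4.71, 4.98, 4.59 and 5.39 on control arrays 1 to 6. Control arrays 6 and 4, the highest for Col8a1, were also the highest for the choroid plexus genes. Without those 2 arrays the difference of Col8a1 was -0.05. Col18a1, the basement membrane collagen from which endostatin is cut, differed by 0.01 (limma adjusted p = 0.904).

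Laminins had 4 genes with a positive and 6 with a negative difference, a median of -0.02, and 0 of 10 at an unadjusted p under 0.05. Lama2 encodes the alpha chain whose loss causes a congenital muscular dystrophy with changes in brain white matter. Its levels were 5.77, 5.74, 5.49, 5.59, 5.55 and 5.44 on poly(I:C) arrays 1 to 6, against 5.71, 5.88, 5.53, 5.70, 5.76 and 5.93 on control arrays 1 to 6. The groups overlapped over most of their ranges, and the difference was -0.16 (95% interval -0.31 to 0.0008, limma adjusted p = 0.349). The vascular alpha chains Lama4 and Lama5 differed by -0.02 each, with limma adjusted p of 0.911 and 0.888. Of the beta chains, Lamb1 spanned 5.95 to 6.35 in poly(I:C) and 6.02 to 6.36 in control offspring (difference -0.02). Lamb2, the beta chain of synapses and vessels, spanned 5.90 to 6.02 in poly(I:C) and 5.87 to 6.02 in control offspring (difference 0.05). Lamc1, the gamma chain that most laminins share, averaged 6.35 ± 0.08 in poly(I:C) and 6.43 ± 0.06 in control offspring (SD, n = 6 each), a difference of -0.07 (limma adjusted p = 0.441). Lamc3 averaged 4.99 ± 0.06 in poly(I:C) and 4.96 ± 0.14 in control offspring, a difference of 0.03.

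**Figure D3:**
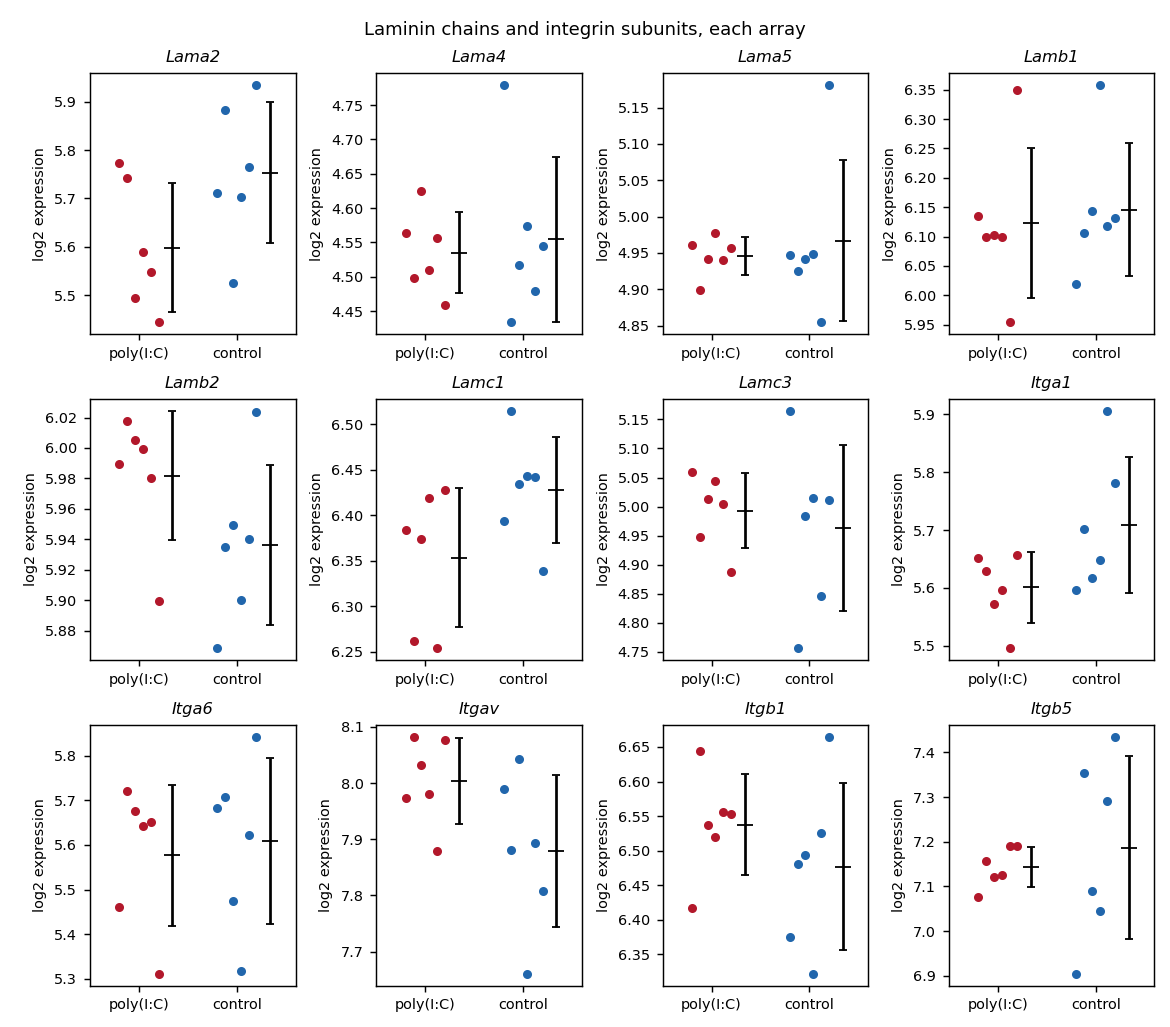
Each panel shows the log2 level of 1 laminin or integrin gene on the 6 poly(I:C) arrays (red, left) and the 6 control arrays (blue, right), beside the mean and SD of each group. The groups overlap in all 12 panels, and in the Itgb5 panel the poly(I:C) arrays span 7.08 to 7.19 within the control span of 6.90 to 7.44.

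The integrin alpha chains decide which ligand a receptor binds. Of the 4 collagen-binding alpha chains 2 had a positive and 2 a negative difference, and of the 3 laminin-binding ones 2 were positive and 1 negative. Itga1, a collagen receptor, ran over 5.50, 5.61 and 5.66 at its lowest, median and highest poly(I:C) array, against 5.60, 5.67 and 5.91 in control offspring. Its difference was -0.11 (95% interval -0.22 to 0.005, limma adjusted p = 0.369). Itga6, a laminin receptor of endothelium and glia, averaged 5.58 ± 0.16 in poly(I:C) and 5.61 ± 0.19 in control offspring (SD, n = 6 each), a difference of -0.03. Itga3, another laminin receptor, averaged 5.22 ± 0.14 in poly(I:C) and 5.19 ± 0.24 in control offspring, where control array 6 alone stood at 5.66. Among chains that recognise the RGD motif of fibronectin and vitronectin, 3 of 4 were positive. Itgav, which pairs with several beta chains and with Itgb8 releases active TGF-beta, had levels of 7.97, 8.08, 8.03, 7.98, 7.88 and 8.08 on poly(I:C) arrays 1 to 6, against 7.99, 7.88, 8.04, 7.66, 7.89 and 7.81 on control arrays 1 to 6. The groups overlapped, and the difference was 0.12 (95% interval -0.003 to 0.25, limma adjusted p = 0.357). Itga5, the classical fibronectin receptor chain, spanned 5.19 to 5.64 in poly(I:C) and 5.15 to 5.80 in control offspring, a difference of -0.15 (limma adjusted p = 0.598). Itga9 differed by -0.01.

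Of the 9 integrin beta chains, 7 had a negative difference and 2 of these an unadjusted p under 0.05. Over all 21218 probe sets 10423 had a negative difference, and 6.57% were lower at that threshold. The median difference of the 9 beta chains was -0.02. Itgb4 pairs with Itga6 to form the laminin receptor of hemidesmosomes. Its levels were 5.41, 5.43, 5.46, 5.43, 5.43 and 5.61 on poly(I:C) arrays 1 to 6, against 5.55, 5.83, 5.46, 5.53, 5.72 and 5.85 on control arrays 1 to 6. Array 6 stood above the other poly(I:C) arrays, and control arrays 2, 5 and 6 stood above all of them. Itgb4 averaged 5.46 ± 0.07 in poly(I:C) and 5.66 ± 0.17 in control offspring (SD, n = 6 each), a difference of -0.20 (95% interval -0.34 to -0.05, limma adjusted p = 0.222). Itgb7, the beta chain of gut-homing lymphocytes, averaged 3.99 ± 0.06 in poly(I:C) and 4.12 ± 0.08 in control offspring (SD, n = 6 each), a difference of -0.12 (limma adjusted p = 0.231). Its level was below that of most probe sets on the array, so the difference concerns a dim signal. Apart from Col6a1, the collagens higher at an unadjusted p under 0.05 also lay below the median level of all probe sets, 5.47. Their means over the 12 arrays ran from 4.48 (Col4a4) to 5.37 (Col1a2). Itgb1, the partner of most alpha chains, differed by 0.06 (95% interval -0.06 to 0.18), Itgb5 by -0.04 (-0.21 to 0.12) and Itgb8 by -0.02 (-0.23 to 0.19). Itgb2, the beta chain of leukocytes and microglia, differed by -0.02 (-0.12 to 0.08). The prefix members that are no chain differed by 0.08 (Itgb1bp1), 0.002 (Itgb1bp2) and 0.02 (Itgbl1).

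Meningeal and vascular markers were read on each array, since these tissues hold most of the brain's collagen. None of the marker lists contains a member. The mean of 28 meningeal fibroblast genes was 5.13, 4.75, 4.84, 4.85, 4.95 and 4.82 on poly(I:C) arrays 1 to 6, against 4.96, 4.73, 4.77, 4.91, 4.73 and 5.05 on control arrays 1 to 6. Poly(I:C) array 1 and control array 6 were highest in their groups, and the group means were 4.89 ± 0.14 and 4.86 ± 0.13 (SD, n = 6 each). Of the 28 genes 15 had a positive and 13 a negative difference, 3 of them higher at an unadjusted p under 0.05 and 0 at an adjusted p of 0.05 in limma. Igf2, the meningeal gene with the highest mean, averaged 7.19 ± 0.27 in poly(I:C) and 7.43 ± 0.67 in control offspring. The mean of 39 endothelial and mural genes was nearly level, between 5.70 and 5.78 on the poly(I:C) arrays and between 5.69 and 5.75 on the control arrays. The median level of all probe sets, 5.47, was reached by 8 of the 28 meningeal, 4 of the 20 mural and 14 of the 19 endothelial genes. Most of the meningeal and mural genes thus gave a dim signal, which limits what relations to these means can show. Among 19 endothelial genes 2 were lower, and among 20 mural genes 2 were higher, at an unadjusted p under 0.05, with 0 of either at an adjusted p of 0.05. For comparison with these lists, 7.83% of all probe sets were higher and 6.57% lower at the unadjusted threshold. On this scale no probe set reads 0, the lowest value being 1.86, so that absence of a tissue cannot be read from a marker.

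**Figure D4:**
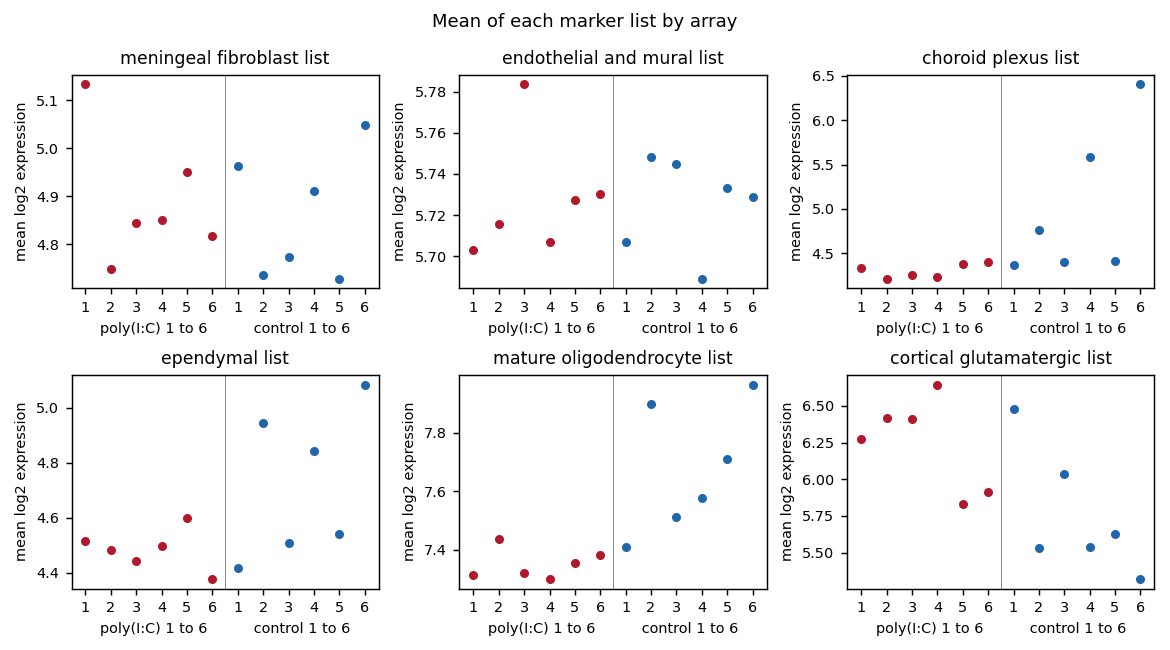
Each panel shows the mean log2 level of 1 marker list on poly(I:C) arrays 1 to 6 (red, left) and control arrays 1 to 6 (blue, right). The meningeal and the endothelial and mural means overlap between groups, whereas control arrays 4 and 6 stand at 5.59 and 6.41 in the choroid plexus panel and 5 of the 6 oligodendrocyte means of the poly(I:C) arrays lie below the lowest control array.

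The 34 members chosen for naming were each set against the meningeal mean and against the endothelial and mural mean over the 12 arrays, which gave 68 relations. After adjustment 0 of them passed 0.05 by r or by rho. At an unadjusted permutation p under 0.05 there were 4 relations with the meningeal mean and 0 with the endothelial and mural mean by r, and 6 and 1 by rho. Col1a2 came nearest, with r = 0.765 (permutation p = 0.00386, adjusted p = 0.263) and rho = 0.797 (permutation p = 0.00293, adjusted p = 0.0996). Without poly(I:C) array 1 and control array 6, the arrays farthest from the median, r was 0.668. Within the 6 poly(I:C) arrays r was 0.942 (exact permutation p = 0.00417) and within the 6 control arrays 0.816 (exact permutation p = 0.0681), neither of which passed after adjustment. Lamc3, a laminin gamma chain, had r = 0.677 (permutation p = 0.0154, adjusted p = 0.349) and rho = 0.818 (permutation p = 0.00173, adjusted p = 0.0996), and r was 0.791 without the same arrays. Lamc3 was also the 1 relation with the endothelial and mural mean, with rho = -0.657 (permutation p = 0.0234, adjusted p = 0.265) and r = -0.396 (adjusted p = 0.927). Lama5 had r = 0.596 (adjusted p = 0.686) and rho = 0.727 (adjusted p = 0.203) by permutation. With the choroid plexus mean its r was 0.769, a relation that was not tested. Itgb2 ran the other way, with r = -0.718 (adjusted p = 0.315) and rho = -0.685 (adjusted p = 0.236) by permutation. Its r was -0.390 without the 2 farthest arrays. Within the groups it was -0.557 over the poly(I:C) arrays (exact permutation p = 0.257) and -0.886 over the control arrays (exact permutation p = 0.0181). Neither passed after adjustment.

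Col11a1 and Col6a1, the members without overlap between the groups, had relations to the meningeal and vascular means that did not pass the adjusted threshold. Against the meningeal mean Col11a1 had r = 0.295 and rho = 0.266, and Col6a1 r = 0.287 and rho = 0.224, with adjusted permutation p of at least 0.813. Against the endothelial and mural mean Col6a1 had r = -0.403 and rho = -0.448 (adjusted permutation p = 0.927 and 0.607). Without poly(I:C) array 3 and control array 4, the arrays farthest from the median, r was -0.718, and within the groups it was -0.821 over the poly(I:C) arrays (exact permutation p = 0.0125, adjusted p = 0.425) and -0.546 over the control arrays. Col11a1 had r = -0.187 and rho = -0.357 (adjusted permutation p = 0.927 and 0.607), r = -0.648 without those arrays, and -0.518 and -0.302 within the poly(I:C) and the control arrays. Both relations were thus more negative without these 2 arrays. With the meningeal mean as a covariate the differences were 0.21 for Col11a1 and 0.40 for Col6a1, and with the endothelial and mural mean 0.22 and 0.42. Both differences were about as large with either tissue mean in the model as without it. These means were nearly equal in poly(I:C) and control offspring (meningeal 4.89 and 4.86, endothelial and mural 5.728 and 5.725). A covariate that is level between groups can move their difference little, so these fits do not decide the part of tissue content. With the choroid plexus mean, which did differ (4.30 and 4.99), the differences were 0.19 for Col11a1 and 0.37 for Col6a1 (limma adjusted p = 0.499 each). A covariate that differs between groups may take up part of their difference, so this fit does not decide the part of tissue content either. For Col1a2 the difference with the meningeal mean as a covariate was 0.11 (limma unadjusted p = 0.0118). The vascular collagens Col4a1 and Col4a2 had r of 0.288 and -0.349 with the endothelial and mural mean, and rho of 0.126 and -0.462, with adjusted permutation p of at least 0.607. Over all 81 members the median r was 0.123 with the meningeal mean and 0.0127 with the endothelial and mural mean. With the 2 vascular lists taken apart it was -0.0851 for the endothelial and 0.0936 for the mural mean. The endothelial mean had r above 0.5 with 6 members and below -0.5 with 9, and the mural mean with 7 and 0. For the joined mean these counts were 2 and 1, so it does not show how members ran with each list. The relations with the separate lists were not tested. Values from the same array share its normalization, so these r are not free of the array.

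The oligodendrocyte and cortical means were set against the same 34 members in a further 68 relations chosen after the data were seen. By r, 9 relations with the oligodendrocyte mean and 7 with the cortical mean passed an adjusted p of 0.05, and by rho 2 and 2. With the oligodendrocyte mean r was positive for Itgb4, Itgb5, Lama2 and Col6a5 and negative for Col11a1, Col6a1, Col3a1, Col4a4 and Col13a1. With the cortical mean it was positive for Col3a1, Col18a1, Col4a4, Itgav and Col11a1 and negative for Itgb4 and Col8a1. Both list means differed between poly(I:C) and control offspring (oligodendrocyte 7.35 and 7.68, cortical 6.25 and 5.76). Of these members, Itgb4, Lama2, Col6a5, Col8a1, Col11a1, Col6a1, Col4a4 and Col13a1 had been named for a small p between the groups. The permutations over all arrays ignored group. An r over both groups thus carries the group difference, and its p does not show a relation apart from that difference. Itgb4 followed the oligodendrocyte mean with r = 0.914 (permutation p = 0.00029, adjusted p = 0.00861) and rho = 0.748 (permutation p = 0.00664, adjusted p = 0.0830), and r was 0.720 without control arrays 2 and 6. Within the groups r was 0.273 over the poly(I:C) and 0.928 over the control arrays. Whether the groups differed in this relation was not tested. Col11a1 ran against the oligodendrocyte mean with r = -0.873 (permutation p = 1e-04, adjusted p = 0.0068) and rho = -0.909 (permutation p = 0.00018, adjusted p = 0.00986), the same r without those arrays, and -0.411 and -0.915 within the poly(I:C) and the control arrays. Col6a1 had r = -0.720 (adjusted permutation p = 0.0492) and rho = -0.902 (adjusted permutation p = 0.00986), and -0.435 and -0.718 within the poly(I:C) and the control arrays. No relation passed the adjusted threshold within either group of 6 arrays, where the smallest adjusted p was 0.958 over the poly(I:C) and 0.142 over the control arrays by the exact permutation test.

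All 13 oligodendrocyte genes had a negative difference, 11 at an unadjusted p under 0.05 and 1 at an adjusted p of 0.05 in limma. The list mean was 7.35 ± 0.05 in poly(I:C) and 7.68 ± 0.22 in control offspring (SD, n = 6 each), and Cnp, its gene with the highest mean, stood at 9.35 ± 0.08 and 9.57 ± 0.21. Of the 8 cortical genes 7 had a positive difference, 5 of them at an unadjusted p under 0.05 and 0 at an adjusted p of 0.05 in limma, with Slc17a7 at 8.82 ± 0.70 in poly(I:C) and 7.32 ± 1.49 in control offspring. Over all probe sets 7.83% were higher and 6.57% lower at an unadjusted p under 0.05. Col3a1 had r = -0.902 (adjusted permutation p = 0.00861) and rho = -0.727 (adjusted permutation p = 0.0830) with the oligodendrocyte mean, -0.627 without control arrays 2 and 6, and 0.0549 and -0.937 within the poly(I:C) and the control arrays. It followed the cortical mean with r = 0.814 (adjusted permutation p = 0.0116) and rho = 0.832 (adjusted permutation p = 0.0313), 0.699 without poly(I:C) array 4 and control array 6, and 0.475 and 0.824 within the poly(I:C) and the control arrays. Itgb4 lost its unadjusted call with the choroid plexus, the cortical or the oligodendrocyte mean in the model. Its difference was -0.13 with the choroid plexus mean (limma unadjusted p = 0.103), -0.09 with the cortical mean (0.214) and 0.03 with the oligodendrocyte mean (0.662). Without control arrays 2, 4 and 6 it was -0.12 (limma unadjusted p = 0.0959). The choroid plexus, cortical and oligodendrocyte means themselves differed between the groups. Fits with them as a covariate thus cannot separate the group from the list mean. The part of the tissue content in the differences of members was not tested.

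**Figure D5:**
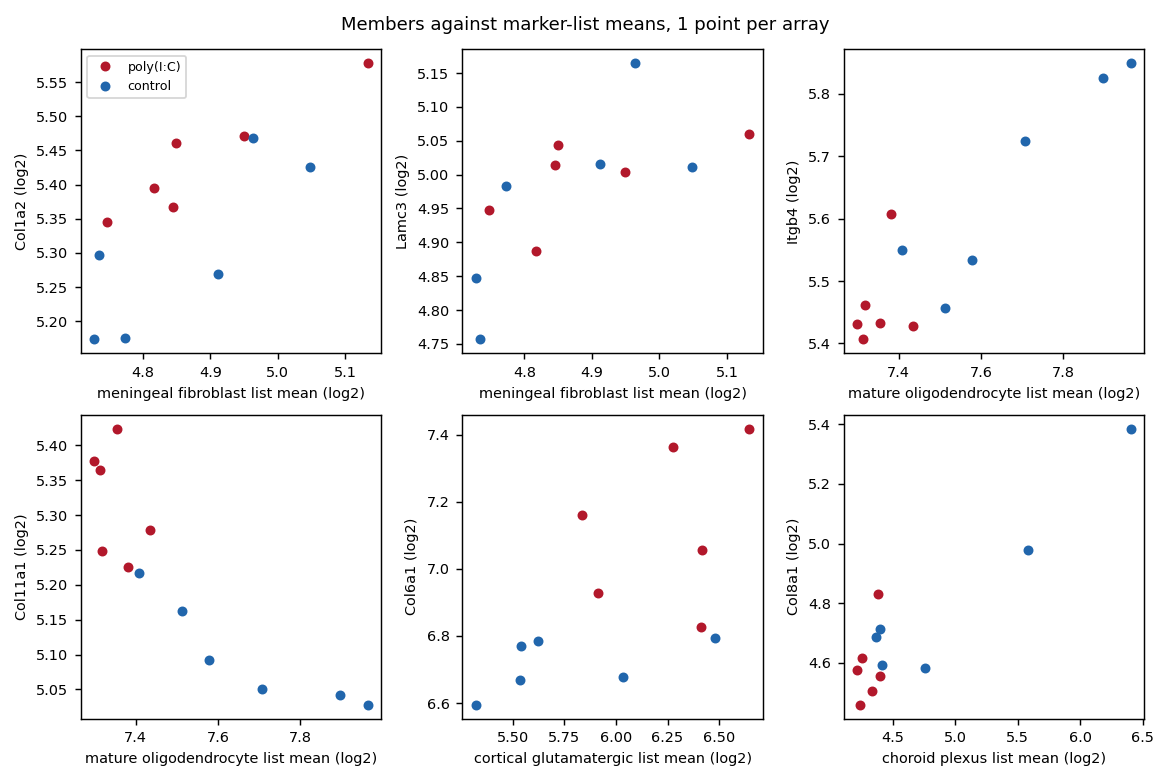
Each panel sets the log2 level of 1 member (vertical) against the mean log2 level of 1 marker list (horizontal), with 1 point per poly(I:C) array (red) and control array (blue). Col1a2 and Lamc3 are drawn against the meningeal mean, Itgb4 and Col11a1 against the oligodendrocyte mean, Col6a1 against the cortical mean and Col8a1 against the choroid plexus mean, where control arrays 4 and 6 stand alone.

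The genes that build, cut and read this matrix were counted from lists of their own, and 0 of them passed an adjusted p of 0.05 in limma. Of 22 measured matrix partners, 2 were higher and 2 lower at an unadjusted p under 0.05. At that threshold 7.83% of all probe sets were higher and 6.57% lower. Agrn encodes agrin, a heparan sulphate proteoglycan of basement membranes and synapses that binds laminin. It averaged 7.27 ± 0.07 in poly(I:C) and 7.09 ± 0.07 in control offspring (SD, n = 6 each), a difference of 0.19 (limma adjusted p = 0.0966). Sparc, a collagen-binding protein, averaged 9.31 ± 0.26 in poly(I:C) and 9.67 ± 0.27 in control offspring, a difference of -0.37 (limma adjusted p = 0.234). Of 20 collagen processing genes 1 was lower, Pcolce2, an enhancer of procollagen cleavage, at 5.39 ± 0.13 in poly(I:C) and 5.81 ± 0.28 in control offspring (limma adjusted p = 0.144). The next of that list, the collagen lysyl hydroxylase Plod1, differed by -0.14 (limma adjusted p = 0.384).

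Of 15 matrix proteases 2 were higher and 2 lower at an unadjusted p under 0.05. The same threshold called 7.83% of all probe sets higher and 6.57% lower. Adamts4, which cuts the proteoglycan aggrecan, averaged 6.05 ± 0.15 in poly(I:C) and 6.30 ± 0.09 in control offspring (SD, n = 6 each), a difference of -0.25 (limma adjusted p = 0.144). Mmp16, a membrane-bound metalloprotease, differed by 0.14 (limma adjusted p = 0.269). Among 23 other matrix receptors and integrin adaptors 1 was higher and 2 were lower. Ptk2b, a kinase related to focal adhesion kinase, differed by 0.16 (limma adjusted p = 0.264) and the syndecan Sdc4 by -0.12 (limma adjusted p = 0.282). The medians of the 4 lists lay between -0.01 and 0.01, near the 0.0016 of all probe sets.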

How the data were processed

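Total RNA, 250 ng per array, was hybridised to Mouse Gene 1.1 ST array strips, per the labels' protocols. The authors deposited 1 table of log2 values with 35556 rows and 12 arrays. Per the submitters' processing notes it was made with RMA and Partek 6.6. RMA quantile-normalizes the arrays, which hides any shift common to most transcripts and compresses differences between low values. Neither array strip, processing day nor genome build is given in the sources used here. The number of arrays limits the precision.

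Of the rows, 1881 carried several symbols and 12457 none, and neither kind was tested. The rest were fitted with limma 3.58.1 (lmFit and eBayes, R 4.3.3) with group as the only term, two-sided, and Benjamini-Hochberg adjustment over all 21218 rows. Col9a3, Col7a1 and Itgb3bp, found only on shared rows, are not members. Correlations used 100000 permutations over 12 arrays and exact permutation within groups.

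Members, gene lists and tests were chosen with earlier results of these data known. Named members are those past the adjusted threshold, the 6 with the smallest p in each direction, the 3 with the highest mean and the 3 with the largest SD of each family, and a set of common chains. From each pathway list the 2 genes with the smallest p are named, and from each cell type list its gene with the highest mean and label checks. Alternatives were another normalization, filters, array weights, marker means as covariates, a replicate block and arrays left out. Those with the cortical or oligodendrocyte mean and without control arrays 2, 4 and 6 were added after the data were seen.

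Replicate numbers occur in both groups. Same-numbered arrays deviated from their group means with correlations of 0.0734, 0.269, 0.0987, -0.16, -0.0413 and -0.201, so the numbers were not taken as pairs.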

Additional observations from a re-analysis of the deposited data

Results flagged for a closer look

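An array far from the other 5 of its group was looked for with Dixon's test in 100 groups of 6 arrays, for the named members and the marker list means, and 6 were found. Chance alone marks about 1 in 20 independent groups. These groups share the same arrays and some members were named for a large SD, so 6 of 100 cannot be read against that rate. Itgb4 stood at 5.607 on poly(I:C) array 6, above 5.406 to 5.462 on the others, and Lamb2 at 5.899 on the same array, below 5.981 to 6.018. Control array 6 was high for Itga3, at 5.659 against 5.009 to 5.182, and for Lama5, at 5.181 against 4.855 to 4.949. Control array 4 was high for Lamb1, at 6.358 against 6.02 to 6.143. The mean of the endothelial and mural genes was 5.784 on poly(I:C) array 3, above 5.703 to 5.73 on the other poly(I:C) arrays. Arrays 4 and 6 of the control group are those with the highest choroid plexus means, and the part of this in the Itga3, Lama5 and Lamb1 values was not tested.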

How the results depend on the processing

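The count of members at an adjusted p of 0.05, 0 in the limma fit, was 2 with array weights (Col11a1 and Col6a1), 1 with the endothelial and mural mean as covariate (Col6a1), and 0 to 1 with 1 array left out, where control array 1 gave the 1 (Col11a1). Among all probe sets it moved more, between 0 and 140. The 6 members higher at an unadjusted p under 0.05 became 1 among probe sets at or above the median level, which kept 18 of the 81 members, 2 with the cortical mean as covariate and 3 without control arrays 2, 4 and 6 (4 higher and 2 lower without only control arrays 4 and 6). With 1 array left out they numbered 3 to 10, with 10 without control array 1 and 3 without poly(I:C) array 4, control array 2 or control array 5. The 2 lower members became 4 after a second quantile normalization, with array weights and with the meningeal mean as covariate, and 1 among probe sets at or above the median level, with the choroid plexus or cortical mean as covariate and without control arrays 2, 4 and 6. With 1 array left out they numbered 2 to 4, with 4 without poly(I:C) array 4, control array 1 or control array 3. With the oligodendrocyte mean as covariate the differences turned positive for Itgb4 (0.029), Itgb5 (0.25) and Itgb8 (0.26), and also for Lama2 (0.025), and negative for Col3a1 (-0.029). In all 29 of 81 members changed sign there, and 4 were higher and 3 lower at an unadjusted p under 0.05. Of the 8 members called without this covariate, 2 kept their call (Col6a1 and Itgb7). The oligodendrocyte mean differed between the groups, so this fit cannot separate the group from that mean, and the cause was not tested. Centring each array on its median left 7 members higher and 2 lower, but moved the split over all probe sets to 1997 higher and 1023 lower, against 1661 and 1395. With the replicate block 4 members were higher, 3 lower and 0 past the adjusted threshold, and only 1 of 6 arrays correlated best with its own number. Col6a1 kept an unadjusted p under 0.05 in 27 of 27 alternatives, Col11a1 in 25 of 26, Itgb7 in 26 of 26, Itgb4 in 23 of 27, Col12a1 in 21 of 26, Col1a2 in 17 of 26, Col4a4 in 10 of 26 and Col13a1 in 9 of 26. With 1 array left out the last 3 kept it in 5, 3 and 4 of 12. The 0 relations past the threshold stayed 0 in the alternatives run. Dim signal limits the set: 63 members lay under the median level.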
